A study of Mus musculus with 18 samples.

Results

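The genotype difference in freshly isolated duodenal crypts was examined in 6 of the 18 RNA-sequencing libraries of the series, those titled as WT crypts (3 libraries) and as Mtgr1 null crypts (3 libraries). The WT mice were labelled Mtgr1+/+ and the null mice Mtgr1-/-, and each library came from a separate mouse, numbered 1 to 3 within its genotype. The study's methods give male and female littermates, and an age of 8 to 12 weeks for mice whose crypts founded enteroids; all mice carried the same tissue label, duodenum of the small intestine, with crypt isolate as the cell type. The other 12 libraries are enteroids grown from the same crypts for 24 or 72 hours, and they are used below only to ask whether a feature of a single crypt library was also seen in that mouse's culture. Of the 17759 genes in the crypt table, 12980 averaged 10 normalized counts or more over the 6 libraries and were tested.

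Cbfa2t2 encodes MTGR1, a nuclear adaptor protein through which genes are repressed. Together with its relatives MTG8 and MTG16 it does not contact DNA directly but bridges DNA-binding factors, such as E proteins, TCF4 and the Notch effector CSL, to NCOR, SIN3 and histone deacetylases. In the intestinal crypt, stem cells at the base give rise to absorptive enterocytes and to secretory goblet, Paneth, enteroendocrine and tuft cells, and Notch signaling and the bHLH factor ATOH1 govern the choice between both branches.

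The targeted gene did not separate the genotypes. Cbfa2t2 (chr2:154436481-154539356, GRCm38, plus strand) stood at 614, 523 and 595 normalized counts in the WT libraries and at 697, 466 and 534 in the libraries labelled Mtgr1-/-. The groups overlapped (log2 fold change -0.05 ± 0.17 (SE), adjusted p = 0.917). The gene-level value sums all transcripts of the locus, and which part of it the null allele removes is not given in the sources used here, so this level does not check the labels. Every direction below is therefore that of the libraries labelled Mtgr1-/- relative to those labelled WT.

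Between 22413394 and 26595193 reads fell on genes in each crypt library. Normalized counts are these reads divided by a single factor per library. Mitochondrial transcripts took 13.4% of all counts in WT replicate 3 and 11.7% in Mtgr1-/- replicate 3, against 6.24 to 6.91% in the other 4 libraries. Xist was high and Y-linked transcripts were at or near 0 in WT replicate 3 and Mtgr1-/- replicate 1, so each genotype held libraries of both patterns. The epithelial identity of all 6 was clear from Vil1, the brush border villin, which lay between 43494 and 61001.

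A total of 614 genes, 4.73% of those tested, differed between genotypes at an adjusted p under 0.05 in limma, and called below refers to this test unless another is named. Of these, 409 (3.15%) were lower and 205 (1.58%) were higher in the libraries labelled Mtgr1-/-. The changes were often large: 324 of the lower genes and 135 of the higher genes moved at least 2-fold, and 149 and 42 moved at least 8-fold. The median log2 fold change of all tested genes was 0.01, so the typical gene was centred. Non-overlapping groups of 3 libraries were more frequent than calls, at 25.5% of tested genes, and all 614 called genes were among them. The number called depended on single libraries: 175 genes passed without WT replicate 1, 213 without WT replicate 2, 312 without Mtgr1-/- replicate 1 and 375 without Mtgr1-/- replicate 3.

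**Figure D1:**
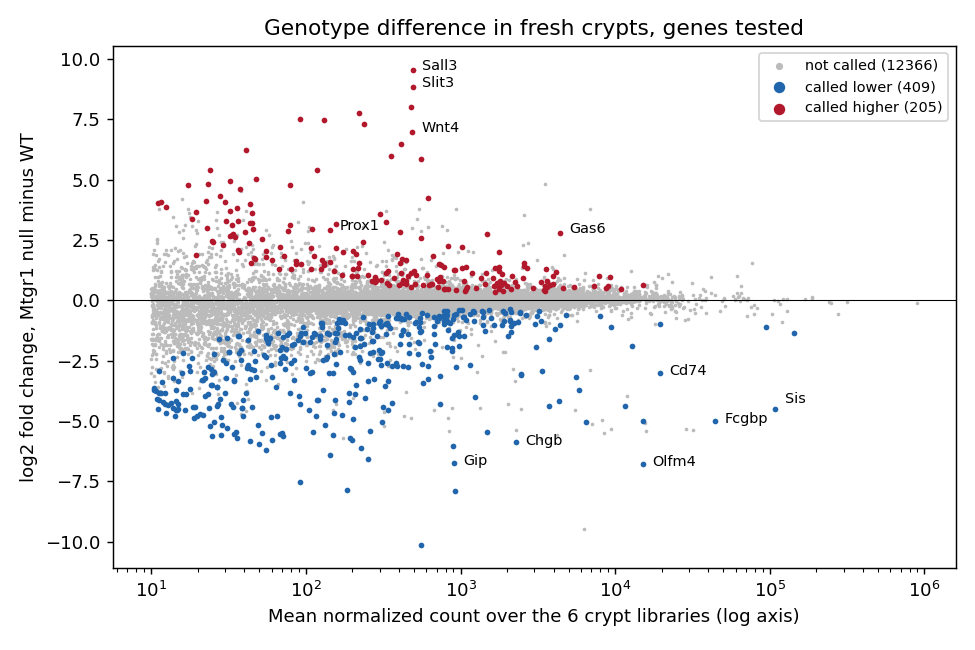
Each point is a tested gene, with its mean normalized count over the 6 crypt libraries on a log axis and the log2 fold change of Mtgr1 null minus WT on the vertical axis. The 409 genes called lower (blue) reach far below 0 even among abundant transcripts such as Fcgbp, Olfm4 and Sis, whereas the largest rises (red) lie among less abundant transcripts.

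Most secretory lineage transcription factors tested were lower in the libraries labelled Mtgr1-/-. Of 21 tested secretory lineage transcription factors, 12 (57.1%) were called lower and 1 higher, with a median log2 fold change of -2.61 against 0.01 for all genes. Atoh1, the bHLH factor required for secretory fate, was at 291, 243 and 337 in WT libraries and at 3.77, 17.1 and 16.3 in those labelled Mtgr1-/-. No Mtgr1-/- library approached any WT library (log2 fold change -4.66 ± 0.53, adjusted p = 0.00568). Spdef, which drives goblet cell maturation, fell by 3.86 on the log2 scale (adjusted p = 0.00542). The endocrine factors were close to undetected. Neurog3, the determinant of the enteroendocrine lineage, was at 89.1, 102 and 115 against 0, 2.85 and 2.03. Neurod1, its downstream bHLH factor, rested on 2 reads over the 3 Mtgr1-/- libraries, a ratio of 152 in favor of WT (95% counting interval 41.6 to 1257). Rfx6, Nkx2-2, Insm1 and Isl1 were likewise called lower, whereas Sox4 and Xbp1 were not called. Without WT replicate 1, 6 of the factors were called lower. In bulk crypts, fewer cells of a type and less RNA per cell cannot be told apart, and this holds for every cell type list below.

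Goblet cell transcripts fell in the libraries labelled Mtgr1-/-. All 21 tested goblet genes had a negative fold change, 19 of them (90.5%) were called lower, and the median log2 fold change was -4.22. Fcgbp, a large protein of the mucus layer, was at 86319, 76088 and 95027 in WT libraries and at 2016, 2504 and 3805 in the libraries labelled Mtgr1-/-. The log2 fold change was -5.00 ± 0.23 (adjusted p = 0.000181). Tff3, the goblet trefoil factor, went from 12604, 11937 and 13012 to 241, 449 and 489. The lectin Zg16 and the mucus protease Clca1 fell by 4.98 and 4.36 on the log2 scale. The Mtgr1-/- values were spread by less than a few fold in these genes, and the gap to WT was far wider. The members that did not pass were Guca2a (log2 fold change -1.09, adjusted p = 0.0721) and Retnlb (-3.45, adjusted p = 0.0917).

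Enteroendocrine transcripts fell to a similar extent, with 20 of 22 tested genes (90.9%) called lower, 12 without WT replicate 1, and a median of -5.04. Gip, the incretin of K cells, was at 1505, 1349 and 2534 in WT crypts and at 10.4, 18.1 and 19.3 in those labelled Mtgr1-/- (log2 fold change -6.72 ± 0.32, adjusted p = 0.000186). Sst, which encodes somatostatin, was at 343, 347 and 815 against 3.77, 1.90 and 7.11. Gcg, the proglucagon gene, was at 415, 437 and 490 against 5.65, 8.56 and 3.05. Hormones of several endocrine subtypes were thus reduced together. Nts, encoding neurotensin, retained 2 reads in all, a ratio of 167 (95% counting interval 45.8 to 1384). The granule protein gene Chgb, the most abundant of the list, fell by 5.88 on the log2 scale (SE 0.20, adjusted p = 9.71e-05). Smaller falls were seen for Sct, encoding secretin (-1.50), and the prohormone convertase gene Pcsk1 (-1.79). Cpe, the carboxypeptidase that trims prohormones, moved the other way, at 282, 265 and 407 in WT and 2985, 733 and 1442 in the libraries labelled Mtgr1-/- (adjusted p = 0.049).

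Promoters of 4 called genes are shown, because they stand for the endocrine (Gip), goblet (Fcgbp), newly abundant (Kif26a) and Notch-responsive (Nrarp) transcripts described here. Each is the run of 250 bases before the RefSeq start in GRCm38.p6, 5′ to 3′ on the plus strand, with the E-box CANNTG, the core motif bound by bHLH proteins, in capitals. The motif reads the same on both strands.
Gip, chr11:96024295-96024544: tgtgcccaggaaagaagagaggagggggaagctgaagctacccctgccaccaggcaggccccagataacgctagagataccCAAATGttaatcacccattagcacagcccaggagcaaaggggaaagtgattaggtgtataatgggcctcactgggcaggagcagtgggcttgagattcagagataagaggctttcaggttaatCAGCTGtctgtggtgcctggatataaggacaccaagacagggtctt
Fcgbp, chr7:28070986-28071235: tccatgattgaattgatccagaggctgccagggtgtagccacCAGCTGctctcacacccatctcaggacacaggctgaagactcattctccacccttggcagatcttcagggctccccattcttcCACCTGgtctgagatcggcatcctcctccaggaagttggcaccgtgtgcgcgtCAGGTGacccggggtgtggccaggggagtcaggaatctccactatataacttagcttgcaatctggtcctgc
Kif26a, chr12:112145958-112146207: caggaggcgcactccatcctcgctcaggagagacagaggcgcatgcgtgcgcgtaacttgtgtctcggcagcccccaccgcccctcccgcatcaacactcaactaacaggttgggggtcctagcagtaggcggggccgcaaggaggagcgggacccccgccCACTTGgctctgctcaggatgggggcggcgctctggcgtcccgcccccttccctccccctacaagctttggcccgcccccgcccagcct
Nrarp, chr2:25180508-25180757: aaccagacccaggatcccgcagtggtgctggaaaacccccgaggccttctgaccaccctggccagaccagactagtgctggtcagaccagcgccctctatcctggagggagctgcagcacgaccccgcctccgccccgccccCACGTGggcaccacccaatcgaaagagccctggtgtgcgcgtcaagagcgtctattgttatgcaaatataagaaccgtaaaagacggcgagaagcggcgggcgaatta

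Gip held 2 E-boxes, Fcgbp 3, and Kif26a and Nrarp 1 each. Such matches were common. Among 10292 tested genes with a RefSeq promoter, 57.8% held CANNTG, compared with 66.4% of 295 genes called lower and 65.7% of 172 called higher. TGGGAA, the core recognized by CSL, searched on both strands, was in 20.5% of all promoters, 22.4% of the lower and 18.6% of the higher genes. ATCAAAG, a TCF site searched on both strands, was in 2.45%, 3.73% and 1.16%. These shares describe letters in a window and were not tested.

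Paneth cell transcripts were low in all 3 libraries labelled Mtgr1-/-, but by very different amounts. Lyz1, encoding lysozyme, was at 56473, 59796 and 58268 in WT crypts, and at 438, 15296 and 426 in Mtgr1-/- replicates 1, 2 and 3. The α-defensin Defa24 was at 42400, 46892 and 65876 against 408, 17019 and 288. Replicate 2 thus kept a substantial Paneth signal that the other two lacked, while lying below every WT library. All 19 tested α-defensins had non-overlapping groups with Mtgr1-/- below WT, as did 13.5% of all tested genes, and a median of -5.20, yet none was called by limma (0 of 19, with Lyz1 at an adjusted p of 0.0734 and Defa24 at 0.0959). All 19 had an unadjusted p under 0.05, and on recovered reads edgeR called 0 and DESeq2 2. Without Mtgr1-/- replicate 2, all 19 were called lower. The α-defensins are near-identical copies, so reads may have been divided among them uncertainly. Of 15 other Paneth products, 3 were called lower (Mptx1, Wnt3 and Reg4), 10 without replicate 2 and at most 1 without any other single library. Wnt3, the Paneth-derived Wnt ligand, was at 55.6, 68.3 and 93.2 against 1.88, 11.4 and 0.

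Tuft cell genes, the remaining secretory type, tended the other way. Dclk1, the kinase used as a tuft marker, was at 325, 296 and 397 in WT and at 1671, 502 and 1199 in the libraries labelled Mtgr1-/-. Alox5, of leukotriene synthesis, was at 74.7, 61.4 and 138 against 867, 204 and 583. Replicate 2 again stood apart, here with the smallest rise. The median log2 fold change of the 21 tested genes was 1.60 and 20 had a positive value, but the only one called was Gfi1b, a zinc finger repressor (8.62, 5.94 and 10.4 against 85.7, 26.6 and 72.2; adjusted p = 0.0404). Pou2f3, the tuft lineage regulator, missed the threshold (log2 fold change 1.86 ± 0.41, adjusted p = 0.053). Without Mtgr1-/- replicate 2, 11 were called higher, and without WT replicate 1 or 2 or Mtgr1-/- replicate 1 or 3, none was. DESeq2 on recovered reads called 12 higher. Part of the list is also expressed by leukocytes, and WT replicate 3, in which leukocyte markers were high, had the highest WT value for 20 of the 21.

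**Figure D2:**
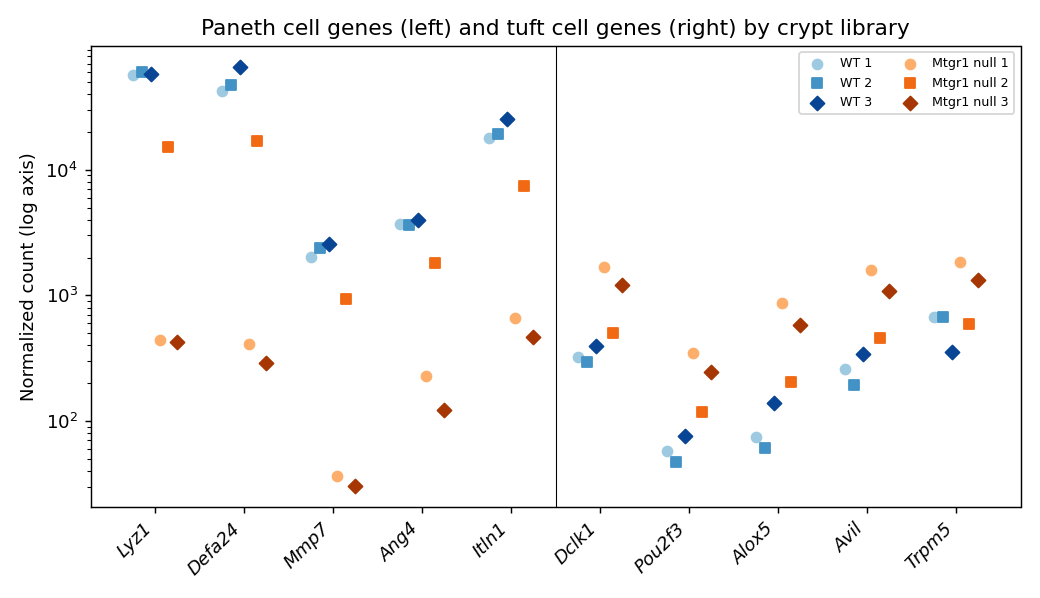
Normalized counts of 5 Paneth cell genes and 5 tuft cell genes on a log axis, each point a crypt library. Mtgr1 null replicate 2 lies between the WT libraries and the other null libraries for the Paneth genes, and it is the lowest of the null libraries for the tuft genes.

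Few stem cell genes were called. Olfm4, a secreted glycoprotein of crypt base columnar stem cells, was at 33032, 31199 and 25673 in WT crypts and at 512, 296 and 133 in those labelled Mtgr1-/-. Its log2 fold change was -6.77 ± 0.44 (adjusted p = 0.000621). Of the 25 active stem cell genes, Olfm4, the water channel gene Aqp4 (-1.54) and the BMP co-receptor gene Rgmb (-0.87) were called lower and none was called higher, and the median of the list was -0.29 with 19 negative values. At an unadjusted limma p under 0.05, 7 were lower and 2 higher, and DESeq2 on recovered reads called 5 lower and 2 higher. The groups did not overlap for 8 of the 25 with Mtgr1-/- below WT, against 13.5% of all tested genes, and for 2 with Mtgr1-/- above. In either direction, 25.5% of all tested genes did not overlap. Lgr5, the R-spondin receptor gene, was at 242, 230 and 296 against 388, 562 and 211. Its groups overlapped through Mtgr1-/- replicate 3 (log2 fold change 0.49 ± 0.34, adjusted p = 0.497). Ascl2, the stem cell bHLH factor, was at 156, 123 and 155 against 153, 122 and 87.4 (adjusted p = 0.587). The list mean of Mtgr1-/- replicate 3 lay 1.23 below the WT mean on the log2 scale, further than replicate 1 (0.52 below) or replicate 2 (0.21 below).

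Reserve and revival stem cell genes were mostly not called. Anxa3, an annexin, was the single gene called of 12 tested by limma, and it was lower (87.2, 95.0 and 73.7 against 18.8, 30.4 and 32.5). DESeq2 called 1 lower and 2 higher, and 7 of the 12 had a negative value. Clu, which marks revival stem cells, was at 21.1, 1.98 and 24.2 against 88.5, 138 and 56.9. The Clu groups did not overlap, but the variable WT values left it at an adjusted p of 0.117. Bmi1, Hopx, Tert and Lrig1 had adjusted p-values of 0.48 or more.

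None of 44 proliferation genes and none of 6 tested cyclin-dependent kinase inhibitor genes was called by limma. Their medians were -0.15 and -0.27, and 38 of the 44 had a negative value. At an unadjusted p under 0.05 there were 1 and 3, edgeR called 0 of either, and DESeq2 called 0 and 1. Against the WT mean, the proliferation list mean stood at -0.08, 0.08 and -0.45 on the log2 scale in Mtgr1-/- replicates 1, 2 and 3. It stood at 0.12, 0.08 and -0.20 in WT replicates 1, 2 and 3. Mki67 was at 9331, 9099 and 8156 in WT and at 7890, 8563 and 6598 in the libraries labelled Mtgr1-/- (log2 fold change -0.21 ± 0.12). At an adjusted p of 0.42 a difference was not detectable for Mki67 or for Myc, which was at 1425, 970 and 678 against 1203, 2484 and 1160. None of the p53 target genes (20 tested), brush border genes (20), cholesterol and fatty acid synthesis genes (22), immediate early and dissociation stress genes (16) or genes marking gut regions (16) passed limma either, and edgeR called 0 in each. At an unadjusted p under 0.05 there were 4, 3, 0, 3 and 3 in that order, and DESeq2 called 1, 1, 0, 1 and 3.

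Among 20 Wnt targets, 1 was called lower and 1 higher, or 5.0% each, close to the 3.15% and 1.58% of all tested genes, and DESeq2 called 3 and 1. Ccnd1, encoding cyclin D1, was at 3449, 3575 and 2080 in WT and at 1118, 1622 and 959 in the libraries labelled Mtgr1-/- (adjusted p = 0.0435). Prox1, a homeobox factor, rose from 27.8, 31.7 and 34.5 to 378, 237 and 154 (adjusted p = 0.00582). Of 12 Notch pathway genes, 11 had a negative fold change and 2 (16.7%) were called lower, or 1 without WT replicate 1, WT replicate 2 or any one of the Mtgr1-/- libraries. At an unadjusted limma p under 0.05, 7 were lower and 0 higher, and on recovered reads edgeR called 2 lower and DESeq2 4. The groups did not overlap for 8 of the 12 with Mtgr1-/- below WT, against 13.5% of all tested genes. Nrarp, a feedback target of Notch, was at 654, 617 and 692 against 126, 83.7 and 119 (log2 fold change -2.59 ± 0.18, adjusted p = 0.000872). The ligand gene Dll4 fell by 1.20. Hes1, the principal effector, was not called and differed by -0.14. Within the MTG family, Cbfa2t3, which encodes MTG16, fell from 93.9, 116 and 157 to 12.2, 42.8 and 19.3 (adjusted p = 0.0365). Gfi1, a zinc finger partner of corepressors, fell by 2.61, and no other tested partner of 15 was called. Runx1t1, which encodes MTG8, was below the filter, at 17.2, 12.9 and 10.4 against 0.94, 0.95 and 2.03.

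Of 40 enterocyte genes, 4 were called lower (10%, against 3.15% of all genes) and 1 higher (2.5%, against 1.58%), and 22 had a positive fold change. DESeq2 on recovered reads called 10 lower and 9 higher. Sis, encoding sucrase-isomaltase, was at 192696, 222520 and 205795 in WT and at 4362, 15132 and 11322 in the libraries labelled Mtgr1-/-. The log2 fold change was -4.51 ± 0.43 (adjusted p = 0.00285), and no other enterocyte gene fell as far. In this list, Sis, Slc2a5 and Khk were among those called lower and Xpnpep2, an aminopeptidase, was called higher. The median of the list was 0.15, and 2, 1 and 1 genes were called lower without WT replicate 1, WT replicate 2 and Mtgr1-/- replicate 1. Slc2a5, a fructose transporter, fell by 1.88 and Khk, a ketohexokinase, by 1.10 on the log2 scale. Tkfc, a kinase of triose sugars that is in no list but is among the most abundant called genes, was at 24408, 25799 and 26998 against 12189, 12800 and 14183, so all 3 libraries of each genotype were tightly grouped. Fth1, the ferritin heavy chain, fell by 1.10, and Clec2h, a C-type lectin, rose by 0.66 on the log2 scale.

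Antigen presentation genes of MHC class II fell together. Cd74, the invariant chain, was at 37627, 37235 and 28161 in WT crypts and at 2800, 6121 and 4463 in those labelled Mtgr1-/-. H2-Aa, an MHC class II chain, was at 12966, 12250 and 7138 against 508, 1014 and 976. Ciita, the transactivator of these genes, was at 1188, 1132 and 898 against 135, 209 and 144. All 3 were well separated, and 7 of 8 genes of the list (87.5%) were called lower, with a median of -2.82. The summed macrophage and myeloid markers (11 genes) were 631, 654 and 4457 in WT and 327 to 903 in the libraries labelled Mtgr1-/-, and the summed B and plasma cell markers (7 genes) were 3468, 1094 and 2943 against 135 to 711. The part of such cells in these values was not tested. H2-DMb2, the gene not called, was at 117 in WT replicate 3 and at most 13.2 elsewhere. Of 30 interferon response genes, 22 had a positive fold change, and the median was 0.43. Against the WT mean, the list mean was 0.57, -0.26 and 0.12 on the log2 scale in Mtgr1-/- replicates 1, 2 and 3. It was 0.09, 0.18 and -0.27 in WT replicates 1, 2 and 3. Limma called 2 lower (6.67%, against 3.15% of all genes), 1 without WT replicate 1 or 2, and 0 higher, whereas 7 were higher at an unadjusted p under 0.05. On recovered reads, edgeR called 2 lower and 0 higher, and DESeq2 called 3 lower and 6 higher. Gvin1, a very large interferon-inducible GTPase, was at 2287, 1995 and 2745 against 170, 150 and 120. Gbp2 fell by 1.85 on the log2 scale.

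**Figure D3:**
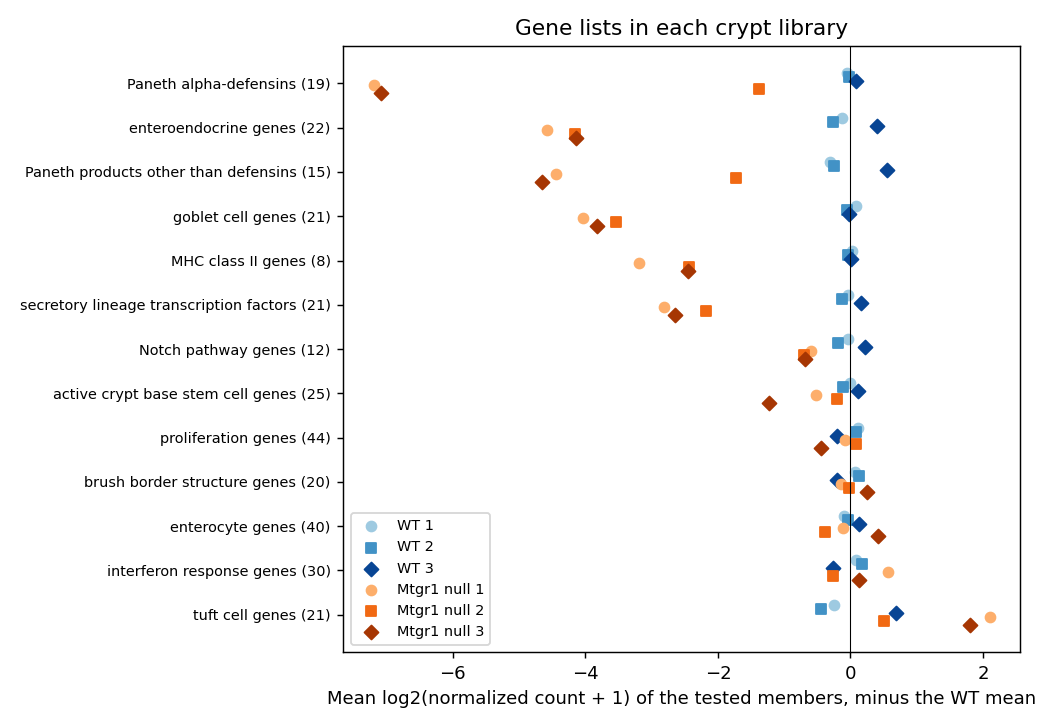
For each gene list (tested members in parentheses), the mean log2(normalized count + 1) of each crypt library is drawn relative to the mean of the WT libraries. Goblet, enteroendocrine, MHC class II and secretory transcription factor lists lie well below 0 in all 3 Mtgr1 null libraries, the defensin list lies at -7.19, -1.38 and -7.08, and the tuft list lies at 2.10, 0.51 and 1.81.

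The largest falls of single genes, beyond those above, included transcripts that were not detected in the libraries labelled Mtgr1-/-. Akr1c14, a hydroxysteroid dehydrogenase and the single gene called lower of 35 in drug and steroid metabolism (2 were higher), was at 1495, 1342 and 2637 in WT and at 13.2, 1.90 and 8.13 in Mtgr1-/- libraries. Tmprss15, the enteropeptidase that activates trypsinogen, was at 2151, 2426 and 650 against 21.7, 3.80 and 111. Afp, encoding α-fetoprotein, was at 189, 217 and 439 against 3.77, 0 and 5.08. The losses of Akr1c14 and Afp exceeded the spread within each genotype. Tmprss15 ran from 3.80 to 111 within the Mtgr1-/- libraries, wider in fold terms than the gap from 111 to the lowest WT value of 650. Ido1, which degrades tryptophan, fell by 5.80 on the log2 scale (adjusted p = 0.0107). Cfhr2, of the complement factor H family, was at 647, 408 and 44.9 against 0 in all 3, at least 126-fold lower when set against a floor of 3 reads per library. The processed pseudogene Rpl34-ps1 was at 1287, 1084 and 974 against 0 in all 3, at least 383-fold lower. The unprocessed pseudogenes Gm2446 and Gm2436 changed in opposite directions, at 179, 195 and 174 against 0 and at 0 against 219, 171 and 160. Their sum was 179, 195 and 174 in WT and 219, 171 and 160 in the libraries labelled Mtgr1-/-, so the genotypes overlapped for the pair as a whole. Reads of near-identical copies can be assigned to either, and these values are uncertain.

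The largest rises were of genes almost silent in WT crypts. Sall3, a zinc finger transcription factor, had 1 read over the 3 WT libraries and stood at 1063, 1034 and 846 in the libraries labelled Mtgr1-/-, a ratio of 2876 (95% counting interval 516 to 113640). Slit3, a secreted guidance ligand, had 3 WT reads and stood at 1028, 1311 and 606. Kif26a, a kinesin-like protein, also had 3 WT reads and stood at 495, 582 and 234. The intervals cover counting error only. Bhlhe23, a bHLH transcription factor, was at 0, 0.99 and 0 against 399, 285 and 95.5. Tfap2a, the AP-2α transcription factor, was at 2.87, 0.99 and 2.30 against 504, 375 and 541 (adjusted p = 0.000186). Wnt4, a Wnt ligand, was at 0.96, 13.9 and 13.8 against 915, 715 and 1272. Megf6 and Megf11, of the multiple EGF domain family, rose by 8.01 and 4.77, Gpc3, a glypican of the cell surface, by 6.50, and the kinase gene Rps6ka2 by 5.88 on the log2 scale. Among those with a higher WT level, Gdpd3, a lysophospholipase D, went from 52.7, 45.5 and 88.6 to 1053, 1203 and 1232. Mtgr1-/- replicate 3 had the lowest null value in 10 of the 15 largest rises.

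**Figure D4:**
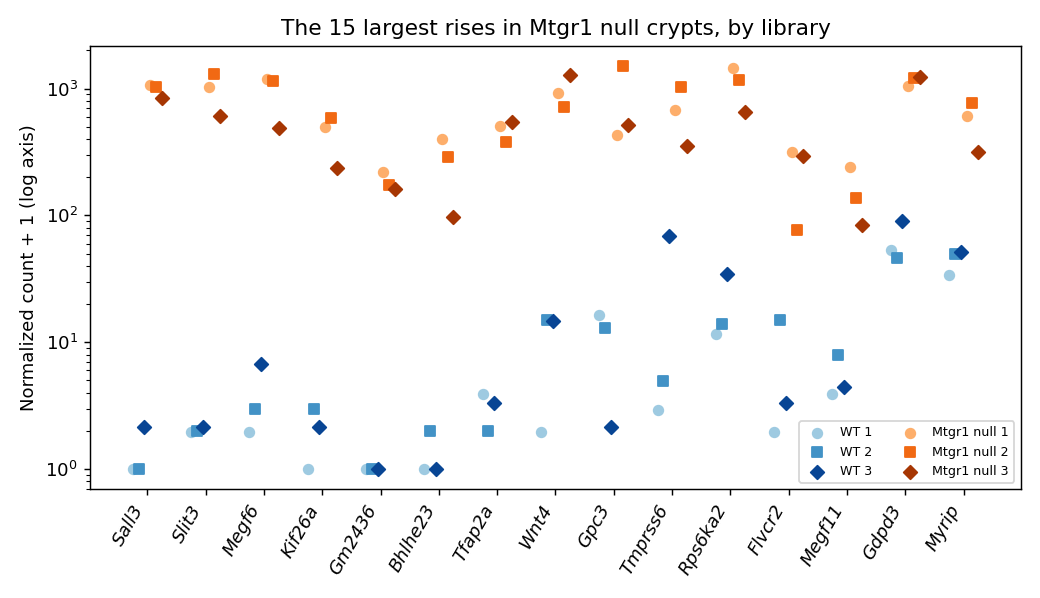
Normalized count plus 1 on a log axis for the 15 genes with the largest rises, each point a crypt library. WT values are at most 88.6 and null values run from 76.1 to 1503. The 15 genes were picked from called genes whose genotypes did not overlap.

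Genes near the targeted locus were examined separately. Within 10 Mb of Cbfa2t2, 12 of 161 tested genes (7.45%) were called, against 4.73% of all genes. Among whole autosomes the share ran from 2.11% (chromosome 10) to 6.92% (chromosome 16), and it was 5.41% on chromosome 2. Sequence carried along with the targeted allele cannot be told apart from the allele itself in these libraries. Ahcy, which hydrolyzes S-adenosylhomocysteine, was at 5012, 5185 and 4386 in WT and at 1331, 1309 and 1201 in the libraries labelled Mtgr1-/-. The groups were tight and far apart (log2 fold change -1.92 ± 0.10, adjusted p = 0.000186). Insm1 and Nkx2-2 of the endocrine list also lie in this window, and Lbp, encoding the lipopolysaccharide-binding protein, rose by 2.89. The other called genes there, among them Zhx3, Dlgap4, Phf20, Dynlrb1, Snph, Entpd6 and Cep250, all moved less than Ahcy on the log2 scale.

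Single libraries differed from their group by unequal amounts. WT replicates 1 and 2 were the closest pair, with a median absolute log2 difference of 0.11 over genes and 2.08% of genes over 2-fold apart. WT replicate 3 was as far from them (11.8% and 12.7% over 2-fold) as they were from the Mtgr1-/- libraries (11.7 to 12.5%). The 3 Mtgr1-/- libraries lay between, with 6.80 to 10.1% over 2-fold apart. Counted per library, 1309 genes (10.1%) of WT replicate 3 were over 2-fold from both other WT libraries, 1114 of them higher. The count was 584 for Mtgr1-/- replicate 2, 453 for replicate 3, 280 for replicate 1, 141 for WT replicate 2 and 102 for WT replicate 1. Many of these genes are weakly expressed, since above a mean of 100 the share for WT replicate 3 was 3.96%. The first principal component (56.8% of the variance) separated the genotypes, with WT replicate 3 the furthest out, and the second (24.0%) separated replicate 3 of both genotypes and Mtgr1-/- replicate 1 from the remaining libraries.

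Markers of other cell types moved with these libraries, and so did some noncoding RNAs. Rn7s1 was at 309, 323 and 7033 in WT and at 395, 2777 and 264 in the libraries labelled Mtgr1-/-. Rn7sk was at 113, 108 and 2811 against 144, 968 and 74.2, and Rnu1a1 at 73.8, 54.4 and 2570 against 199, 1403 and 16.3. All 3 were thus highest in WT replicate 3 and Mtgr1-/- replicate 2, and the cause was not tested. All 12 measured T cell and intraepithelial lymphocyte markers were highest in WT replicate 3, where their sum was 32749, against 3837 and 3333 in the other WT libraries and 839 to 3725 in those labelled Mtgr1-/-. The summed macrophage and myeloid markers were 4457 in WT replicate 3, with 10 of 11 highest there, against 631 and 654 in the other WT libraries and 327 to 903 in those labelled Mtgr1-/-. No marker of either list was called by limma, edgeR or DESeq2, and 3 and 1 were lower at an unadjusted p under 0.05. Hemoglobin and other red blood cell markers summed to 261 in replicate 3 of both genotypes and to 2.82 to 16.2 in the other 4. Summed mast cell markers were highest in Mtgr1-/- replicates 1 and 3, at 317, 282 and 1028 in WT and 2915, 415 and 1588 in those labelled Mtgr1-/-. Kit, which was highest in WT replicate 3, made up 770 of the sum there. Mcpt1, a mucosal mast cell protease, missed the threshold in limma (adjusted p = 0.0815), and DESeq2 called 2 mast cell markers higher. B and plasma cell markers summed to 3468, 1094 and 2943 in WT and to 135, 363 and 711 in the libraries labelled Mtgr1-/-, mostly from Jchain, the immunoglobulin joining chain (limma adjusted p = 0.0737). DESeq2 called 1 B and plasma cell marker lower. Exocrine pancreas markers summed to 1038, 983 and 1364 against 129, 351 and 121, in WT mostly from Clps, encoding colipase, while Cpa1, Cpb1 and Pnlip stood at 21.1 or less. Clps was at 678, 740 and 1190 against 11.3, 243 and 7.11, with Mtgr1-/- replicate 2 between WT and the other null libraries, as for the Paneth genes. Cela1 was at 110, 112 and 162 against 118, 105 and 109. Both sums were lower in the libraries labelled Mtgr1-/-, the pancreas sum mainly through Clps. Which cells Clps came from was not tested. Fibroblast, endothelial, smooth muscle, neuronal and glial, and Brunner gland and stomach markers were low throughout, with sums of at most 569, 350, 43.7, 36.6 and 70.0. None of these markers was called by limma or edgeR, 2 had an unadjusted p under 0.05, and DESeq2 called 1 fibroblast marker lower. Of 6 tested Reg family genes, Reg4 alone was called. The part of these cells in the genotype calls was not tested. Without WT replicate 3, the number of genes called was 568, of which 449 were among the 614.

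**Figure D5:**
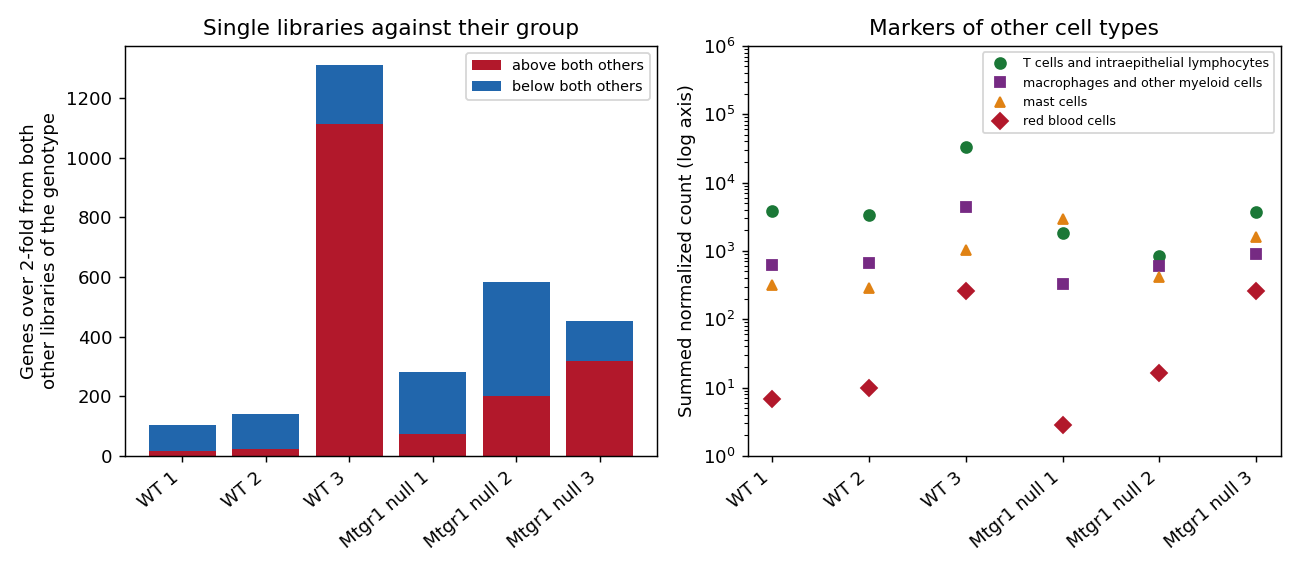
Left, the number of genes in each crypt library over 2-fold above or below both other libraries of its genotype, which is largest for WT replicate 3 at 1309. Right, summed normalized counts of marker lists for other cell types on a log axis, with T cell and macrophage markers highest in WT replicate 3 and red blood cell markers high in replicate 3 of both genotypes.

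Deviations of single crypt libraries recurred in the enteroids of the same mouse. Over 12239 genes, the deviation of a crypt library from its group mean correlated with that of the same mouse after 24 hours at 0.33, 0.14 and 0.37 for WT mice and at 0.41, 0.54 and 0.44 for Mtgr1-/- mice. The own mouse gave the highest correlation in 5 of 6 cases, WT replicate 2 being the exception. After 72 hours the correlations were lower, from 0.09 to 0.33. The own mouse was again highest in 5 of 6 cases. Mtgr1-/- replicate 3 was the exception (0.11 against 0.12 for another mouse), and WT replicate 1 was barely ahead (0.10 against 0.08). These are correlations across genes, which are not independent, and libraries of a mouse share its sex chromosomes and strain background. Mtgr1-/- replicate 2 kept the highest Paneth signal of its genotype in culture, with Lyz1 at 2026 after 24 hours against 265 and 543 in the other Mtgr1-/- cultures, and at 2549 after 72 hours against 421 and 747. The leukocyte signal of WT replicate 3 did not persist in the same way, with Cd3e at 1163 in crypts, 32.7 after 24 hours and 1.94 after 72 hours. The tables for each time were normalized separately, so levels across them are given side by side only.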

How the data were processed

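RNA from crypt isolates was sequenced as stranded, poly(A)-enriched single reads of 50 bp. Per the labels and the study's methods, the authors trimmed reads with fastp 0.20.0, quantified them with Salmon 1.3.0 against GENCODE M21 and imported them with tximeta. The deposited values are a signal, namely read counts divided by the DESeq2 1.26.0 size factor of each library. Whole reads were recovered from these steps in all libraries (tolerance 1e-06). The deposited log2 fold changes, test scores and p-values hold the authors' own comparisons and were not used.

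Genes averaging 10 or more were compared with limma 3.58.1 (R 4.3.3) on log2(normalized count + 1), with an intensity trend and Benjamini-Hochberg adjustment at 0.05. Fold changes are on that scale and understate the change of low genes. The smallest p of an exact permutation test, 3 against 3, is 0.1, so none was used. On simulated counts for this comparison (12812 genes), 83 of 93 genes changed 4-fold and 62 of 107 changed 2-fold were recovered, with 12 false calls. The changed genes were drawn from those with a mean of at least 50, and each gene varied independently. These rates therefore do not cover weaker genes or differences shared by many genes of a library. edgeR 4.0.16 and DESeq2 1.42.0 on recovered reads were alternatives.

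The 23 gene lists, the 14 marker lists and the members were chosen with earlier results of these data known. Named genes were the study's stem cell and proliferation genes, the 15 largest rises and falls (called, mean at least 50, no overlap), up to 6 called genes per list in its main direction and 3 in the other, the 2 most abundant where fewer than 2 passed, called genes near Cbfa2t2, the 10 most abundant called genes, markers of other cell types, and the 5 genes furthest from the group in each library. Any other named gene was chosen after its values were seen. Names and coordinates came from GENCODE M21 (GRCm38), promoters from RefSeq (GRCm38.p6).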

Additional observations from a re-analysis of the deposited data

How the results depend on the processing

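All 83 called genes named by the rule kept their direction under the 22 alternatives, and 42 stayed past the threshold under every one. Goblet and MHC class II counts stayed within 1.5 times the reported value throughout. Leaving out each library in turn gave 175 to 605 genes called (54 to 229 higher, 121 to 376 lower) against 614, 3914 to 5013 genes without overlap against 3307, and 6 to 13 secretory factors, 12 to 20 enteroendocrine genes, 0 to 19 α-defensins and 0 to 10 other Paneth products called lower. A group of 2 libraries overlaps less often by construction.

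Array weights gave 2100 genes called (982 higher, 1118 lower), and DESeq2 on recovered reads gave 1379 (586 and 793). Without WT replicate 2, whose step lies near 1, edgeR gave 209 (52 and 157) and DESeq2 1200 (434 and 766), an alternative chosen after seeing the data. For α-defensins, array weights called 19 lower, DESeq2 2 and the Xist covariate 1. For other Paneth products, array weights called 13 lower, and the fit without trend, edgeR, and the fit without the mouse 3 libraries of both genotypes (also chosen after seeing the data) called 1 each, while edgeR without WT replicate 2 called 0. Above a mean of 100, the share of genes over 2-fold from both other libraries was 0.107, 0.184 and 3.96% for WT and 0.892, 2.34 and 1.20% for Mtgr1-/- replicates, lower for each library than over all tested genes. The cause of these changes was not tested, apart from the smaller number of weakly expressed genes in the last.

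Reversals were limited to 5 genes that were not called. Leaving out each library in turn gave log2 fold changes of -0.207 to 0.0823 for Cbfa2t2, -0.0735 to 0.129 for Hopx, -0.132 to 0.033 for Bmi1, -0.0558 to 0.757 for Cdkn1c and -0.0204 to 0.184 for Vil1. Without the mouse 3 libraries, Cbfa2t2 was at 0.00842, Hopx at -0.108, Bmi1 at 0.0817 and Vil1 at -0.0945. Array weights gave 0.0281 for Cbfa2t2 and 0.0451 for Bmi1. Hopx was at -0.018 under median-ratio rescaling, -0.0266 under quantile normalization and -0.0199 with scaling without secretory genes.

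Deviations of same-numbered libraries correlated across genotypes at 0.08, 0.27 and 0.35. Every library except WT replicate 1 correlated best with its own number. WT replicate 1 correlated best with Mtgr1-/- replicate 2, at 0.20. Whether a number stands for something shared across genotypes is not given and was not tested. With mouse number as a replicate block, 562 genes were called (174 higher, 388 lower), 1 of the other Paneth products and 1 Notch pathway gene were called lower, and 6 tuft genes higher.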

Other observations

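Further called genes, chosen after their values were seen, belong to no list above. Gas6, a ligand of TAM receptors, was at 879, 893 and 1568 in WT crypts and at 8061, 9619 and 5168 in those labelled Mtgr1-/- (adjusted p = 0.00453). Tead2, a partner of YAP, was at 68.0, 56.4 and 53 against 757, 705 and 346 (adjusted p = 0.00285). Both lay above every WT value in all 3 libraries, as did every gene called higher. Fbp1, a gluconeogenic phosphatase, was at 2821, 3176 and 7079 against 239, 882 and 475 (adjusted p = 0.023). The hypoxia-inducible factor gene Epas1 fell by 2.76 and the plakophilin gene Pkp1 by 3.40 on the log2 scale.

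Some values were followed into the cultures of the same mice. Pla2g2a, a Paneth cell phospholipase, was at 305, 261 and 11409 in WT crypts, and WT mouse 3 was again the highest WT culture after 24 hours (455, 423 and 3606) and after 72 hours (451, 399 and 8585). Rpl34-ps1 was at 1491 to 1656 in WT and 0 in Mtgr1-/- cultures after 24 hours. In contrast, Gm2446 and Gm2436 did not keep their split: after 24 hours all Mtgr1-/- cultures held Gm2446 (178 to 218) and WT mouse 3 held Gm2436 instead (223). Cyp1a1, a xenobiotic-metabolizing enzyme, was at 202, 155 and 9.21 in WT crypts and at 0.94, 173 and 194 in those labelled Mtgr1-/-, low in the same pair of libraries in which Xist was high. After 24 hours the same pair of mice were the highest of their genotypes, at 531 against 282 and 115 in WT and at 2208 against 473 and 1125 in Mtgr1-/- cultures. After 72 hours WT mouse 3 was no longer the highest (41.2, 11.6 and 31.9), while Mtgr1-/- mouse 1 still was (496, 216 and 423).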
